A study of Mus musculus with 10 samples.

Results

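Wild-type marginal zone B cells (MZB) were compared with wild-type follicular B cells (FoB) across all 9690 genes of a table of mRNA per cell, in 5 of the 10 samples of the series. The samples were chosen by their labelled cell type and their wild-type LSD1 status, and the LSD1 knockout samples were not used in the main comparison. They entered only the recovery of reads and an alternative fit of all 10 libraries, both described further on. The 3 MZB and 2 FoB libraries were made from unstimulated spleen B cells of female C57BL/6J mice, with the RNA of 50000 sorted cells in each. Both sorts kept B220+ cells. MZB were gated as CD21hi, CD1d+ and CD23-, and FoB as CD23+ and CD1d- with intermediate CD21. Both gates left out CD93+ immature and GL7+ activated cells, and cells positive for Thy1.1, F4/80 or CD11b. The ages of the mice, and any Cre or other transgene that the wild-type mice carried, are not stated in the labels. It is also unstated if each library had a mouse of its own. The p-values therefore describe the spread among the 5 libraries alone, and that spread could be technical.

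Marginal zone B cells are non-circulating, innate-like cells that sit at the border of the splenic white pulp, where they sample blood-borne antigen, carry lipid and complement-coated antigen, and turn quickly into plasmablasts. Their fate depends on Notch2 signals from the stroma, and their position on sphingosine-1-phosphate receptors and integrins. Follicular B cells recirculate through blood, lymph and the follicles of lymphoid organs and take part in responses that depend on T cells. The transcription factor KLF2 is known to hold follicular cells in a quiescent, recirculating state.

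MZB libraries held more mRNA per cell than FoB libraries. The values summed over all genes were 74815, 99800 and 92252.8 molecules per cell in the MZB libraries and 56437.7 and 45237 in the FoB libraries. Every MZB library lay above every FoB library, and the means of 88955.9 ± 12814.6 (SD, n = 3) and 50837.4 ± 7920.09 (SD, n = 2) stood in a ratio of 1.75. The two-sided exact permutation test gave p = 0.1, the smallest value this test can return for groups of 3 and 2, so it cannot reach 0.05. The lowest MZB library was 1.33 times the highest FoB library, while the highest and lowest libraries differed 1.33-fold within MZB and 1.25-fold within FoB. The median gene stood at 3.60, 4.66 and 4.28 mRNA per cell in MZB and 2.47 and 1.98 in FoB. The share of the total held by the 100 highest genes ran from 21.4% to 23.3% over the 5 libraries. Each sample is a pool of sorted cells, so fewer cells of a type and less RNA per cell cannot be told apart, and how the authors scaled reads to molecules per cell is not stated in the labels or the table.

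**Figure D1:**
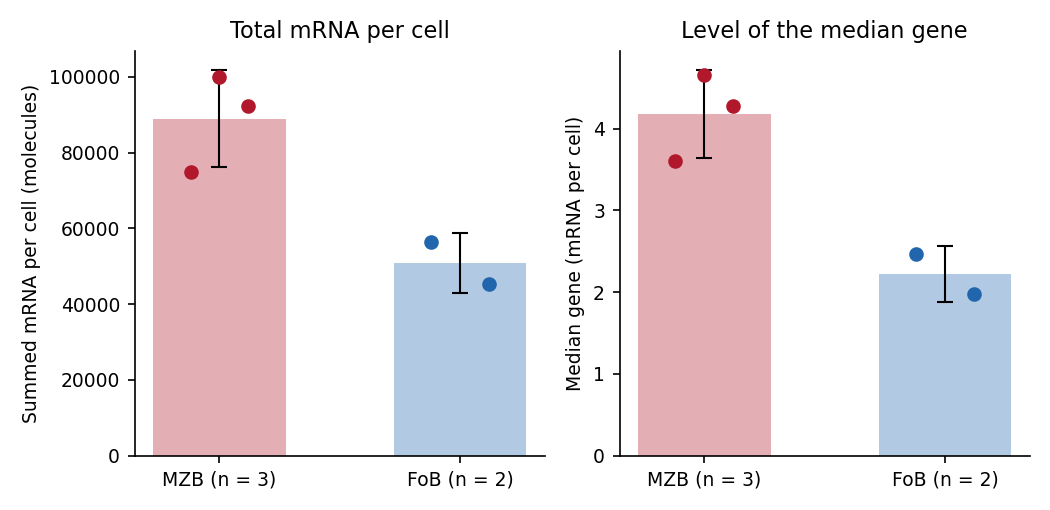
Left, summed mRNA per cell; right, level of the median gene in mRNA per cell. Points are libraries, bars the group means and error bars the SD (n = 3 MZB, n = 2 FoB). The 3 MZB libraries lie between 74815 and 99800 molecules per cell and the FoB libraries at 45237 and 56437.7.

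Because of this difference, genes were compared on 2 scales: per cell, with the values as deposited, and rescaled, with each library divided by a trimmed mean of its log-ratios to the mean library, so that a rescaled difference is relative to the other genes. A log2 difference is the MZB mean minus the FoB mean of log2(value + 0.3), which understates the change of low genes, and a gene is called where the limma p adjusted by Benjamini-Hochberg over all genes is below 0.05. Per cell, 7754 of 9670 genes tested were higher in MZB (80.2%) and 146 were lower (1.51%), with a median log2 difference of 0.78 per cell. After rescaling, 2663 of 9666 genes were higher (27.6%) and 2605 lower (27%), with a median of 0.00081. Of the genes called higher per cell, 2663 were also higher after rescaling, 851 were lower and 4235 were not called. Of the 146 genes lower per cell, 145 were lower after rescaling. The MZB and FoB libraries did not overlap for 8185 genes with MZB above per cell (84.5% of all) and 169 with MZB below (1.74%), and for 3407 (35.2%) and 3385 (34.9%) after rescaling. An error shared by all genes of a library counts as if separate for each gene, so the per-cell p-values are too small. Without FoB replicate 2 the per-cell count of higher genes was 4660, and without FoB replicate 1 the per-cell count of lower genes was 84.

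**Figure D2:**
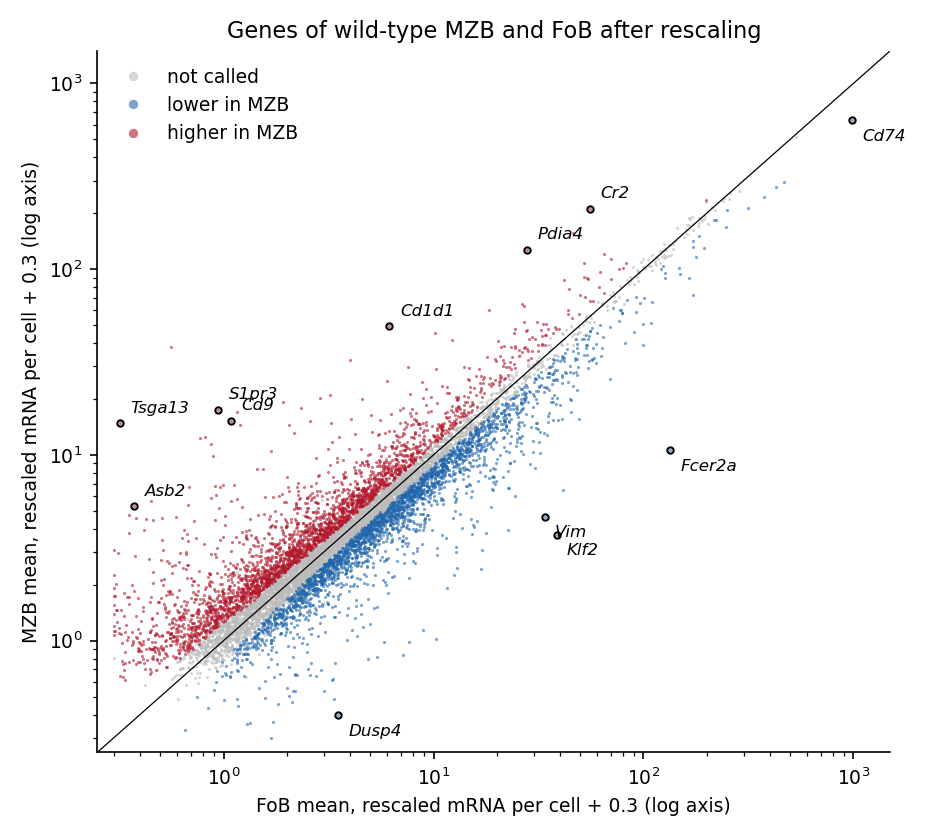
Mean of the 3 MZB libraries against the mean of the 2 FoB libraries for each gene, in rescaled mRNA per cell plus 0.3, both axes logarithmic. Points are genes, coloured by the rescaled limma call, the line marks equal values, and 12 genes are named. The 2663 genes called higher lie above the line and the 2605 called lower below it.

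The genes of the sort markers were examined first. Cr2, which encodes the complement receptor CD21, stood at 243, 287 and 283 mRNA per cell in MZB and at 45.0 and 32.6 in FoB. The MZB libraries were all far above the FoB libraries, 6.99-fold per cell, and the rescaled log2 difference was 1.93 ± 0.08 (SE; limma adjusted p = 5.66e-07). Cd1d1, the lipid-presenting molecule CD1d, stood at 54.3, 59.8 and 74.2 in MZB and 4.27 and 3.85 in FoB, with a rescaled log2 difference of 2.99. Fcer2a, the low-affinity IgE receptor CD23, stood at 11.7, 17.7 and 10.5 in MZB and 107 and 80.4 in FoB. It was 7.05-fold higher in FoB per cell, and its rescaled log2 difference was −3.68 ± 0.15 (SE; limma adjusted p = 5.66e-07). All 3 went in the direction of the sort, so the libraries matched their labels, and since the sort chose the cells by these proteins the differences are a check only. Cd93, a marker of immature B cells, was low in both groups, at 0.367 to 0.558 mRNA per cell in MZB and 0.614 to 0.712 in FoB. Ptprc, which encodes B220, was higher per cell and not called after rescaling (log2 −0.14, limma adjusted p = 0.106). Itgam, which encodes CD11b, stood at 0.265 to 0.394 in MZB and 0.0875 to 0.0999 in FoB. It was called higher in MZB per cell (log2 0.69, limma adjusted p = 0.0016) and was too low to be tested after rescaling. Kdm1a, the gene of LSD1, was measured at 6.37, 8.36 and 7.90 mRNA per cell in MZB and 5.58 and 4.34 in FoB. Its rescaled log2 difference ran from −0.28 to −0.19 over the alternative settings, and it was called in 17 of 19 of them.

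The 15 genes with the largest rescaled difference in each direction, among 1495 higher and 1626 lower genes that met the naming rule, included receptors of position and lipid sensing on the MZB side. S1pr3, a receptor for sphingosine-1-phosphate (Entrez 13610; chromosome 13, 51408618 to 51422797 on GRCm38), stood at 19.0, 21.7 and 25.5 mRNA per cell in MZB and at 0.520 and 0.382 in FoB. This was a 48.9-fold difference per cell, with a rescaled log2 difference of 4.21 ± 0.10 (SE; limma adjusted p = 3.28e-08). Plxnd1, a semaphorin receptor, stood at 13.8, 15.5 and 17.0 in MZB and 0.367 and 0.291 in FoB. Cd9, a tetraspanin known on MZB and B-1 cells, stood at 16.2, 20.7 and 20.8 against 0.580 and 0.501, with a rescaled log2 difference of 3.82. Ackr2 and Ackr3 encode atypical chemokine receptors, which take up chemokines without G-protein signalling. Ackr2 stood at 14.9, 14.3 and 17.6 in MZB and 0.363 and 0.343 in FoB. Ackr3 stood at 4.89, 6.45 and 5.85 in MZB and rested on 3 reads in each FoB library, so its fitted rescaled value moved from 2.37 to 6.2 over the alternative settings. In all of these genes every MZB library lay far above every FoB library. The naming rule asked for no overlap after rescaling, and the ranking for a large difference.

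Tsga13 had the largest fitted difference, but it rests on almost no FoB reads. It stood at 17.0, 18.9 and 19.7 mRNA per cell in MZB, from 548, 455 and 445 reads, while the FoB libraries held 0 reads and 1 read. No fold is given for it, because the fitted rescaled value of 5.54 moved between 3.93 and 8.88 with the pseudocount and the other settings. The other 9 genes of this set were Myof, a membrane-repair ferlin, Asb2, a ubiquitin ligase subunit, Cd300lf, an inhibitory lipid receptor, Rap1gap, which switches off the GTPase Rap1, Nebl, Rgs10, an inhibitor of G-protein signalling, Pla2g7, a phospholipase that breaks down platelet-activating factor, Mpeg1, a pore-forming protein of phagocytic cells, and Zc3h12c, an RNA-binding protein. Their rescaled log2 differences ran from 3.31 for Zc3h12c to 3.88 for Myof. Of these, Mpeg1 stood at 20.5, 25.3 and 27.3 mRNA per cell in MZB and 1.26 and 0.990 in FoB. Asb2 stood at 5.41, 7.01 and 6.84 against 0.0680 and 0.0401, from 8 and 5 FoB reads. Nebl and Pla2g7 also rested on few FoB reads, 7 and 5 for Nebl and 4 and 2 for Pla2g7.

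Among the 15 genes lowest in MZB, Fcer2a was followed by the transcription factor Klf2 (Entrez 16598; chromosome 8, 72319062 to 72321654). Klf2 stood at 3.48, 5.28 and 4.52 mRNA per cell in MZB and 29.7 and 23.6 in FoB. It was 6.02-fold higher in FoB per cell, with a rescaled log2 difference of −3.38 ± 0.07 (SE; limma adjusted p = 2.4e-08). Pde2a, a phosphodiesterase that breaks down cyclic nucleotides, stood at 0.767, 1.26 and 0.783 in MZB and 7.82 and 6.07 in FoB. The cortical scaffold gene Ahnak and the intermediate filament gene Vim had rescaled log2 differences of −2.91 and −2.87, and Vim stood at 4.12, 7.22 and 5.66 against 24.8 and 21.6. Hvcn1, a proton channel of B cells, stood at 6.76, 10.3 and 6.77 against 33.7 and 24.1. The remaining genes of this set were Myadm, the calcium channel subunit Cacna1i, the p38 kinase Mapk11, the actin-associated Rflnb, the pseudokinase Trib2, the transcription factors Bach2 and Jund, the integrin chain Itgb7 and the glucocorticoid-induced Tsc22d3. All 15 were also called lower per cell, with per-cell log2 differences from −2.81 for Fcer2a to −1.61 for Jund. Reads of genes that overlap another gene could not be told apart where the counting did not use strand, which applies here to Fcer2a with Trappc5, Cd300lf with Rab37, Hvcn1 with Tctn1, and, among genes named further on, Gpr34 with Cask, Cxcr5 with Bcl9l, Gpr183 with Ubac2 and Itga4 with Cerkl.

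**Figure D3:**
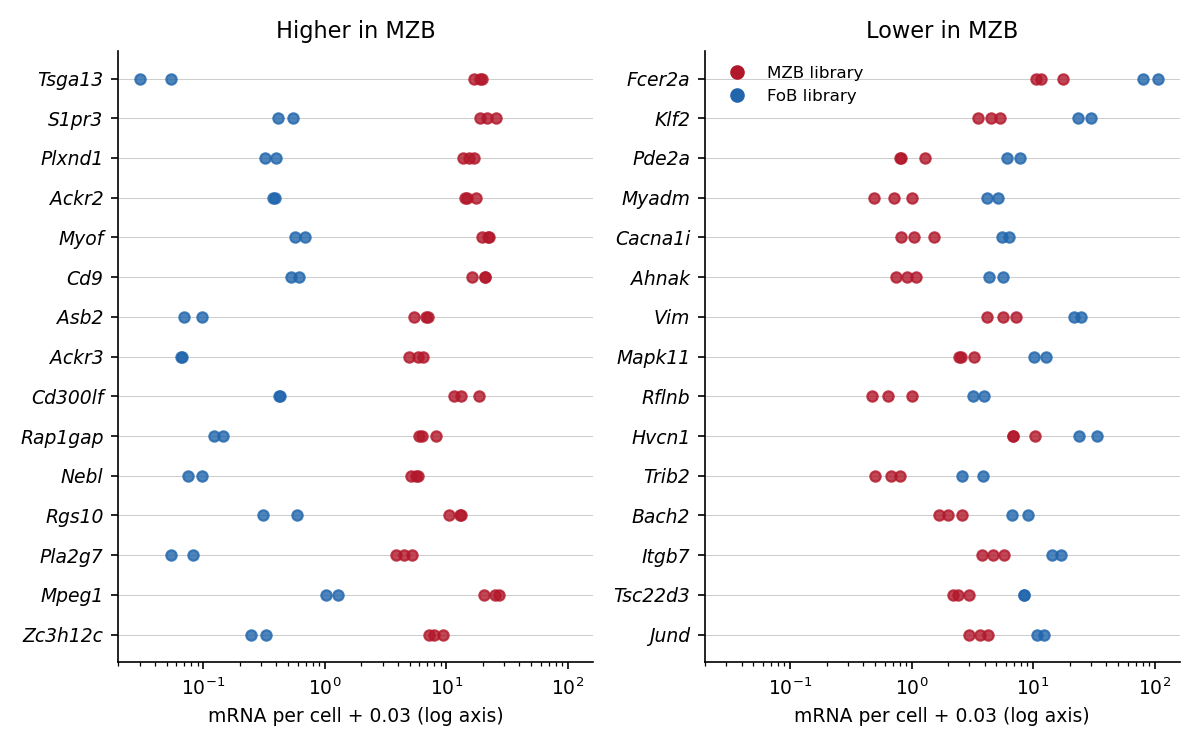
The 15 genes with the largest rescaled difference in each direction, with mRNA per cell plus 0.03 in each library on a logarithmic axis. Red points are the 3 MZB libraries and blue points the 2 FoB libraries. The groups do not overlap for any of these genes, which the naming rule asked for.

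Genes were then read in lists by function. Among lists with at least 9 tested members, the per-cell median was above 0 in every list but the follicular one, so that lower after rescaling means lower relative to the other genes. Each rescaled count in a list is to be read beside the 27.6% of all genes called higher and the 27% called lower. Each per-cell count is to be read beside 80.2% and 1.51%. The rescaled shares also vary with level: of 5 equal groups by mean level, 13.4% of the lowest and 41.7% of the highest were called lower. The list shares are not adjusted for this. Genes listed as typical of each cell type mostly followed the labels. These lists include the sort markers Cr2, Cd1d1 and Fcer2a and were chosen with earlier results of these data known. Their direction is therefore not independent of the sort or the data. Of 22 measured marginal zone B cell genes, 18 were higher and 3 lower after rescaling, with a median log2 difference of 2.08 against 0.00081 over all genes. Those with the smallest p were Cd9, the Fc receptor-like gene Fcrl5, Dph5, of the diphthamide pathway, and the fatty acid transporter Cd36. Fcrl5 stood at 35.6, 45.3 and 43.0 mRNA per cell in MZB and 2.80 and 2.34 in FoB. Cd36 stood at 19.1, 26.5 and 22.7 against 1.56 and 1.29. The 3 that were lower were Lfng, Rapgef4 and Pik3r1, at rescaled log2 differences of −1.56, −0.64 and −0.23, and Ebi3 was not called. Of 20 follicular B cell genes, 18 were lower and 1 higher, with a median of −1.33. Itga4 was the higher one (rescaled log2 0.28) and the follicle-homing receptor gene Cxcr5 was not called. Per cell, 9 of the 20 were lower, 3 were higher and 8 were not called.

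The sequences before the starts of several of these genes are shown, because Notch target genes and KLF2 stand on opposite sides of the comparison. Each run is the 250 bases upstream of an annotated start, 5′ to 3′ on the gene's strand, from RefSeq on GRCm38.p6. That start need not be the outermost one of the gene. The Itgb7 run lies within its gene, which spans 102215994 to 102233405. Part of the Cr2 run also lies within its gene, which spans 195136811 to 195176880. In the first set, which is higher in MZB, capitals mark the core TGGGAA, or TTCCCA on the other strand, of the Notch partner RBPJ.
Dtx1 (chr5:120711670-120711919, minus strand): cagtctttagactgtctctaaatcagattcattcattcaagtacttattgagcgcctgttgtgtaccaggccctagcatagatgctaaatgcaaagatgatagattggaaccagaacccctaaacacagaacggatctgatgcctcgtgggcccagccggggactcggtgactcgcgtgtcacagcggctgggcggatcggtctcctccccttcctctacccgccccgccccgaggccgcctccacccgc
Hes5 (chr4:154960673-154960922, plus strand): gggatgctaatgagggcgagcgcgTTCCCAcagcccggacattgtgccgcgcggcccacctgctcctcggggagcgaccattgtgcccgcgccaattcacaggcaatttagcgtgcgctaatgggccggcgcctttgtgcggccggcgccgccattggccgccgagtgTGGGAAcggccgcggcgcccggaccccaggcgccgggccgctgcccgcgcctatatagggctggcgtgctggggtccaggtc
Cr2 (chr1:195176720-195176969, minus strand): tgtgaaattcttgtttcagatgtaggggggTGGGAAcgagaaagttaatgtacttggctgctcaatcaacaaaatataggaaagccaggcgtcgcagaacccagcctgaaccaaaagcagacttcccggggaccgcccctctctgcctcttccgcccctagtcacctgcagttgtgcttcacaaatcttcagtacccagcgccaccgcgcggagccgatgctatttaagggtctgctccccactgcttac
S1pr3 (chr13:51408368-51408617, plus strand): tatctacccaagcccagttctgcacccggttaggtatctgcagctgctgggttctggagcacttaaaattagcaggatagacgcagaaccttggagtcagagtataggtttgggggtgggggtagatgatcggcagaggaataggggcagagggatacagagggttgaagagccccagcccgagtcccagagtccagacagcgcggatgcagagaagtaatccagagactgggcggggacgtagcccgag
Of the Notch targets, Hes5 held 2 matches and Dtx1 none, while Cr2 held 1 and S1pr3 none. In the second set, which is lower in MZB, capitals mark CACCC, or GGGTG on the other strand, the core of the sites that KLF factors bind. Each set is marked for its own core alone. The KLF core also occurs, without its own marking, in the Dtx1, Cr2 and S1pr3 runs of the first set. For Fcer2a, the first of its 3 windows is shown.
Itgb7 (chr15:102231936-102232185, minus strand): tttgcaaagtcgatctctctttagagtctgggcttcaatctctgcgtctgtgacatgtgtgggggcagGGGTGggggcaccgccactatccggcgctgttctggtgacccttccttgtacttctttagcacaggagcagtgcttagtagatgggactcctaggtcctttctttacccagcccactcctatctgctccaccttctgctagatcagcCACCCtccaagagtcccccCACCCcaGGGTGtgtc
Klf2 (chr8:72318812-72319061, plus strand): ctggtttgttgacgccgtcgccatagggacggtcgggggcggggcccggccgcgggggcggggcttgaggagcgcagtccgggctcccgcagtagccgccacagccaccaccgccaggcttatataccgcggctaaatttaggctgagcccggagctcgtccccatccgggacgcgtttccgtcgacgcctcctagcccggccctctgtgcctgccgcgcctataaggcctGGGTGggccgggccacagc
Fcer2a (chr8:3694175-3694424, minus strand): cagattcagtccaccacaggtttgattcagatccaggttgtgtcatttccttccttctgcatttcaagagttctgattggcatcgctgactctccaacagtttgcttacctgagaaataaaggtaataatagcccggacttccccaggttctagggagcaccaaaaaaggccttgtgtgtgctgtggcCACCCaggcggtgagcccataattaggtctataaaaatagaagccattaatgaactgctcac
Itgb7 held 4 matches, Klf2 1 and this Fcer2a window 1. The RBPJ core was present in 21.6% of all 32851 windows of this length and in 20.1% of those of the measured genes. It was in 21.3% of windows of genes higher after rescaling, 18.9% of those of genes lower and 20.1% of those of genes not called. The KLF core was present in 52% of all windows and 55.8% of those of the measured genes. It was in 54.4% of windows of higher genes, 59.5% of those of lower genes and 54.2% of those of genes not called. Among genes past a 2-fold rescaled change, the RBPJ core was in 22.8% of windows of higher and 19.3% of lower genes, and the KLF core in 57.5% and 64.4%. Neither core contains the other, though matches of both can share bases, and a match says nothing of binding.

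Of 24 tested trafficking receptors, which place B cells in the spleen, 10 were higher and 8 lower after rescaling (41.7% and 33.3%, beside 27.6% and 27% of all genes), a median of 0.07. Beside S1pr3 and Ackr3, the inflammatory chemokine receptor gene Ccr1 stood at 4.79, 5.43 and 5.6 mRNA per cell in MZB and 0.285 and 0.297 in FoB. S1pr1, the receptor that draws lymphocytes towards blood, stood at 71.1, 95.8 and 83.6 in MZB and 21.4 and 15.3 in FoB, with a rescaled log2 difference of 1.30. The lysophosphatidylserine receptor gene Gpr34 had one of 2.26. On the lower side, Cxcr4, which responds to CXCL12, stood at 4.15, 4.58 and 4.47 in MZB and 11.7 and 9.09 in FoB (rescaled log2 −2.02). S1pr4 and Ccr7, the receptor for T zone chemokines, had rescaled log2 differences of −1.99 and −1.48, and the oxysterol receptor gene Gpr183 one of −0.96. Cxcr5 stood at 54.0, 77.7 and 71.4 in MZB and 41.4 and 32.7 in FoB, and its rescaled value of −0.02 was not called (limma adjusted p = 0.801). The MZB libraries were thus all above the FoB libraries in Cxcr5 per cell, and overlapped them after rescaling.

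Genes that shape the signal of these receptors were more often lower. Of 22 regulators of G-protein signalling, 6 were higher and 14 lower after rescaling, with a median of −0.36. The share lower was 63.6% beside 27% of all genes, and the share higher, 27.3%, was near the 27.6% of all genes. Rgs10 stood at 10.6, 12.8 and 13.2 mRNA per cell in MZB and 0.562 and 0.278 in FoB, and Rgs18 had a rescaled log2 difference of 1.63. Of the receptor kinases, Grk3 was higher (2.76) and Grk2 lower (−0.78) after rescaling, while Grk2 was not called per cell.

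Adhesion and cytoskeletal genes differed as well. Of 32 tested integrin and adhesion genes, 11 were higher and 13 lower after rescaling, a median of −0.05. The shares were 34.4% and 40.6%, beside 27.6% and 27% of all genes. Itgb7, which pairs with the alpha 4 chain for gut homing, stood at 3.78, 5.77 and 4.68 mRNA per cell in MZB and 16.9 and 14.3 in FoB. Its partner Itga4 stood at 20.3, 28.0 and 22.0 against 11.3 and 9.45. Itgb1, the other partner of alpha 4, stood at 6.68, 8.84 and 8.11 against 1.83 and 1.63, with a rescaled log2 difference of 1.20. Itgal, the alpha chain of LFA-1, had one of 0.45. The genes of the 2 beta chains that can join alpha 4 therefore stood on opposite sides. The adhesion gene Slamf1 was lower at −1.69 after rescaling.

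The cytoskeleton list was mostly lower in MZB, with 35 of 48 measured genes lower and 4 higher after rescaling and a median of −0.45. That is 72.9% lower, beside 27% of all genes. Beside Vim, the genes with the smallest p were Flna, an actin crosslinker at 17.9, 24.3 and 22.2 mRNA per cell in MZB and 35.1 and 27.6 in FoB, S100a10 (rescaled log2 −1.84) and the GTPase gene Rhoh (−1.30). Per cell, 7 of the 48 were lower and 20 higher.

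Notch pathway genes are the known route into the marginal zone fate. Of 30 measured, 9 were higher and 8 lower after rescaling, a median of 0.03, a share near that of all genes in each direction. The higher ones included target genes of Notch. Dtx1 stood at 50.4, 64.2 and 59.6 mRNA per cell in MZB and 8.55 and 5.41 in FoB, with a rescaled log2 difference of 2.17 ± 0.09 (SE; limma adjusted p = 6.34e-07). Hes1 stood at 7.04, 10 and 9.53 against 2.28 and 1.95, and Hes5 at 2.05, 2.46 and 2.78 against 0.339 and 0.405. In these 3 target genes every MZB library was above every FoB library after rescaling, as in 35.2% of all genes. The receptor gene Notch2 stood at 19.3, 28.2 and 22.9 in MZB and 17.3 and 13 in FoB, higher per cell and lower after rescaling (log2 0.62 and −0.25). Rbpj, which carries the signal to DNA, had a rescaled log2 difference of 0.28 and was called higher. Lfng, a glycosyltransferase that tunes Notch for its ligands, stood at 1.96, 2.60 and 2.01 in MZB and 3.96 and 3.80 in FoB. The call on Notch2 held in 13 of 19 alternative settings and that on Rbpj in 12 of 19.

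B cell transcription factors were more often lower than higher in MZB. Of 55 measured, 35 were lower and 8 higher after rescaling (63.6% and 14.5%, beside 27% and 27.6% of all genes), with a median of −0.42. Bcl6, the master factor of germinal centre cells, stood at 2.60, 3.05 and 2.60 mRNA per cell in MZB and 10.6 and 7.18 in FoB. Bach2, which restrains plasma cell fate, stood at 1.97, 2.59 and 1.64 against 9.14 and 6.70. Zfp318, needed for IgD expression, had a rescaled log2 difference of −1.74, and the chromatin organiser Satb1 one of −1.63. Foxo1 and Ets1 were lower after rescaling (−0.66 and −0.78) and not called per cell. Of the 8 higher genes, Ahr, a ligand-activated receptor, stood at 4.15, 5.29 and 4.66 mRNA per cell in MZB and 0.299 and 0.193 in FoB. Its rescaled log2 difference was 2.61 ± 0.09 (SE; limma adjusted p = 3.21e-07). The others were Id2, Tcf4, Zbtb20, Irf4, Zeb2, Ikzf1 and Runx3.

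Among E proteins and the Id proteins that block them, the members moved apart. Id2 stood at 2.67, 2.84 and 3.46 mRNA per cell in MZB and 0.272 and 0.171 in FoB, while Id3 stood at 5.19, 6.18 and 5.90 in MZB and 10.5 and 7.75 in FoB. The E protein gene Tcf4 had a rescaled log2 difference of 0.99 and its relative Tcf3 one of −0.42. Of the B lineage factors, Pax5 had a log2 difference of −0.29 after rescaling and of 0.59 per cell, called in opposite directions, and Ebf1 was not called after rescaling (0.01, limma adjusted p = 0.912).

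Of 23 measured genes of the Toll-like receptor list, which sense microbial products, 12 were higher, 4 lower and 7 not called after rescaling, a median of 0.23. The shares were 52.2% higher and 17.4% lower, beside 27.6% and 27% of all genes. Tlr3, which senses double-stranded RNA, stood at 4.78, 5.80 and 5.97 mRNA per cell in MZB and 0.229 and 0.179 in FoB, a rescaled log2 difference of 2.96. Tlr7, for single-stranded RNA, stood at 13.2, 20.2 and 15.8 against 2.84 and 2.61. Tlr4, for lipopolysaccharide, had a rescaled log2 difference of 0.86, and its cofactor Ly96, which encodes MD-2, one of 2.30. Cd180, a relative of Tlr4 on B cells, had one of 0.91 and Tlr9, for unmethylated DNA, one of 0.39. The 4 lower members were Irak2, Irak3, Irf5 and Tollip, of signalling below the receptors, at −0.55, −0.44, −0.27 and −0.26.

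Of 43 measured interferon-stimulated genes, 23 were higher and 6 lower after rescaling (53.5% and 14%, beside 27.6% and 27% of all genes), a median of 0.45. Isg15, a ubiquitin-like modifier, stood at 2.62, 3.95 and 3.75 mRNA per cell in MZB and 0.229 and 0.216 in FoB, with a rescaled log2 difference of 2.25 ± 0.11 (SE; limma adjusted p = 1.5e-06). The guanylate-binding protein genes Gbp7 and Gbp3 had values of 1.73 and 0.93, and Mx1, an antiviral GTPase, of 1.30. Samhd1, a dNTPase, was lower (−1.27). Several members belong to families of near-identical copies, such as the Ifit and Oas genes, whose reads the authors' counting could split.

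**Figure D4:**
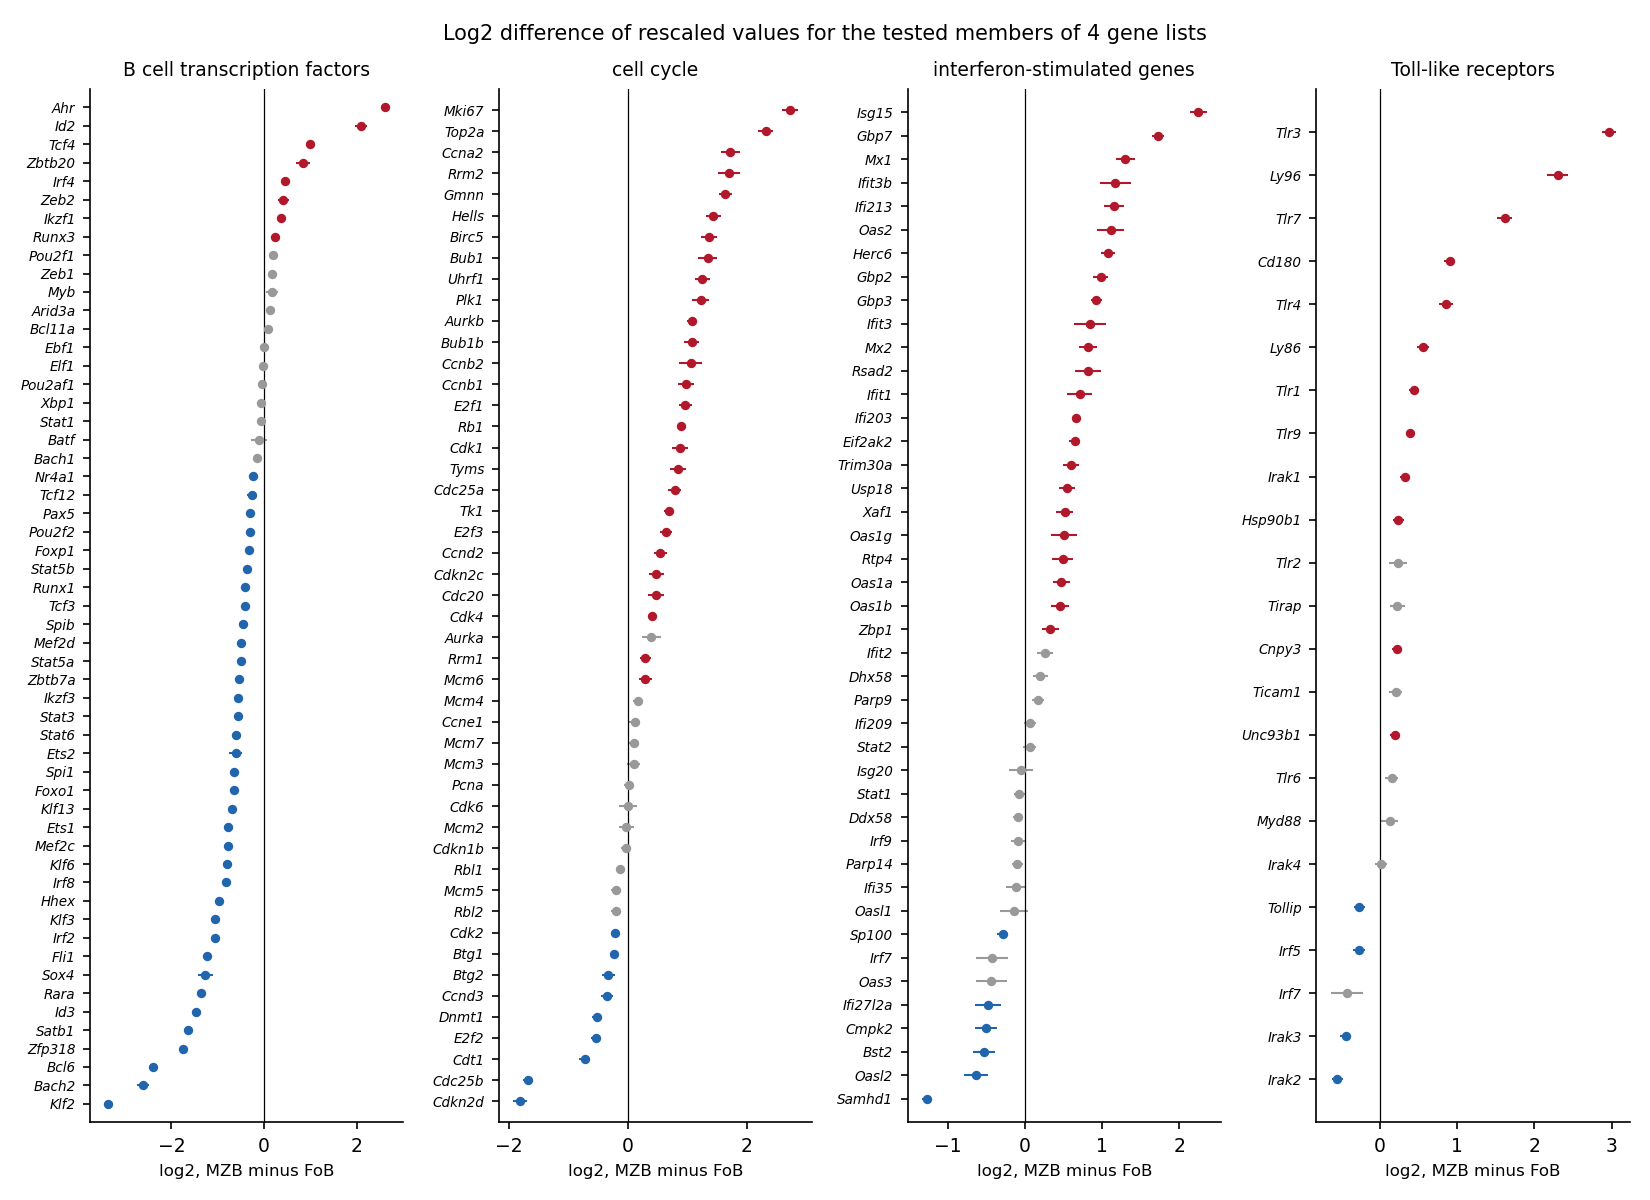
Log2 difference of rescaled values (MZB minus FoB, log2(value + 0.3)) with its standard error for the tested members of 4 gene lists. Red members were called higher in MZB, blue lower and grey not called by limma. Most transcription factors lie to the left of 0, and most cell cycle, interferon-stimulated and Toll-like receptor genes to the right.

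In the antigen receptor pathway, members moved both ways. Of 49 measured genes of B cell receptor signalling, 17 were higher and 22 lower after rescaling, a median of −0.13. The shares were 34.7% and 44.9%, beside 27.6% and 27% of all genes. The 4 with the smallest p were all higher: Ptpn22, a phosphatase that damps receptor signals, Cr2, and the inhibitory receptor genes Lair1 and Lilrb4a. Ptpn22 stood at 17.5, 22.1 and 19.6 mRNA per cell in MZB and 2.99 and 2.25 in FoB. The inhibitory coreceptor gene Cd22 was lower after rescaling (log2 −0.28) and higher per cell. The Fc receptor list had 2 higher and 4 lower of 9 after rescaling (22.2% and 44.4%). Beside Fcrl5, the inhibitory IgG receptor gene Fcgr2b was higher (rescaled log2 0.74), while Fcgrt, which recycles IgG, stood at 1.19, 1.20 and 1.15 in MZB and 3.24 and 3.22 in FoB.

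Genes of the signalling chains downstream were more often lower than higher after rescaling. Of 30 genes of the PI3 kinase list, 18 were lower and 3 higher after rescaling (60% and 10%, beside 27% and 27.6% of all genes). The catalytic subunit genes Pik3cd and Pik3cg had rescaled log2 differences of −0.65 and −0.86, and the phosphatase gene Inpp4a one of 1.61. Of 23 canonical NF-kB genes, 12 were lower (52.2%), among them Nfkbia (−1.06) and Rela (−0.76). Another 5 were higher (21.7%), among them Traf1 (1.34) and Malt1 (0.85). Of 11 non-canonical genes, 7 were lower and 2 higher (63.6% and 18.2%), and the BAFF receptor gene Tnfrsf13c had a rescaled log2 difference of −0.82. Per cell, 60%, 56.5% and 45.5% of these 3 lists were called higher, beside 80.2% of all genes. The MAP kinase list had 23 lower and 6 higher of 47 after rescaling (48.9% and 12.8%). Dusp4, a nuclear MAP kinase phosphatase, stood at 0.0873, 0.176 and 0.125 mRNA per cell in MZB, from 6 to 9 reads, and 2.58 and 1.91 in FoB, while Dusp16 stood at 6.03, 7.77 and 7.85 against 1.07 and 0.889. The 2 phosphatase genes thus lay on opposite sides.

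Cytokine receptor genes differed both ways. Of 27 tested, 10 were higher and 13 lower after rescaling (37% and 48.1%, beside 27.6% and 27% of all genes). Csf2rb, the common beta chain of the receptors for IL-3, IL-5 and GM-CSF, stood at 10.9, 14.4 and 13.9 mRNA per cell in MZB and 0.888 and 1.01 in FoB, and may share reads with its close copy Csf2rb2. Il9r stood at 50.7, 49.2 and 57.4 against 10.8 and 6.08, and Il2rb had a rescaled log2 difference of 1.74. Il4ra, the receptor chain for IL-4 and IL-13, stood at 4.08, 6.23 and 4.74 in MZB and 11.8 and 9.32 in FoB. Il21r and Il27ra were also lower, with rescaled log2 differences of −1.78 and −1.11. Of 7 cytokine genes, Tgfb1, Ltb, Il12a and Il16 were lower after rescaling (57.1%, beside 27% of all genes). Their values ran from −1.14 for Tgfb1 to −0.31 for Il16.

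Genes that present antigen and engage T cells also divided. Of 34 antigen presentation genes, 17 were lower and 7 higher after rescaling (50% and 20.6%, beside 27% and 27.6% of all genes). The class II genes were among the lower ones. Cd74, the invariant chain, stood at 651, 922 and 890 mRNA per cell in MZB and 754 and 621 in FoB, H2-Aa had a rescaled log2 difference of −0.65 and H2-Ab1 of −0.62, and their activator Ciita of −1.16. None of these 4 was called per cell. Under quantile normalization, the differences of Cd74 and H2-Aa were 0, while Ciita was called in all 19 alternative settings. The class I genes H2-K1, B2m and Tap1 were not called after rescaling. Cd1d2, a near-identical neighbour of Cd1d1 whose reads may be shared with it, was higher (2.55). Of 21 costimulation genes, 9 were higher and 6 lower after rescaling (42.9% and 28.6%). The share lower was near the 27% of all genes. Cd86 stood at 8.02, 10.6 and 10.1 in MZB and 2.03 and 1.5 in FoB, and Cd274, which encodes PD-L1, had a rescaled log2 difference of 1.40. Icosl and Cd200 were lower, at −1.10 and −1.76.

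Cell cycle genes were more often higher than lower in MZB. Of 48 measured, 27 were higher and 9 lower after rescaling (56.2% and 18.8%, beside 27.6% and 27% of all genes), a median of 0.44. Mki67, a marker of dividing cells, stood at 5.50, 9.52 and 7.71 mRNA per cell in MZB and 0.403 and 0.450 in FoB, a rescaled log2 difference of 2.73 ± 0.14 (SE; limma adjusted p = 1.57e-06). Top2a, a topoisomerase of mitotic chromosomes, stood at 5.17, 9.08 and 7.20 against 0.595 and 0.581. Gmnn and Ccna2, of S and G2 phase, had rescaled log2 differences of 1.64 and 1.72. Pcna, the replication clamp, was not called (0.02, limma adjusted p = 0.862). The lower ones included Cdkn2d, an inhibitor of G1 kinases, at −1.81, and Cdc25b at −1.68.

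Ribosomal genes were higher per cell and mostly not called after rescaling. All 77 measured cytosolic ribosomal protein genes were called higher per cell with all 5 libraries, with a per-cell median of 0.86, and after rescaling 3 were higher, 3 lower and 71 not called. Of 76 mitochondrial ribosomal protein genes, 18 were lower and 3 higher after rescaling. These shares of 23.7% and 3.95% were below the 27% and 27.6% of all genes. Of 93 ribosome biogenesis genes, 17 were higher and 17 lower (18.3% each, also below those of all genes). Npm1 stood at 93.9, 139 and 107 mRNA per cell in MZB and 43.6 and 32.4 in FoB. In the Myc network, Myc stood at 16.1, 22.8 and 18.5 against 5.86 and 4.04, a rescaled log2 difference of 1.04, and Mxd4, a repressor that competes for the same partner, was higher as well (0.89). Of 77 oxidative phosphorylation genes, 25 were lower (32.5%, near the 27% of all genes) and 8 higher (10.4%, below the 27.6%). Of 39 proteasome genes 19 were lower (48.7%) and 2 higher (5.13%). The extremes of the calls were Psmd13 at −0.53 and Psmd14 at 0.34 after rescaling. Of 25 glycolysis genes, 5 were higher and 6 lower (20% and 24%). Of 39 genes of cholesterol and fatty acid metabolism, 24 were lower and 4 higher (61.5% and 10.3%). Cd36 and Scd2, a desaturase, were on the higher side and Srebf2, the regulator of sterol synthesis, on the lower (rescaled log2 −1.01).

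Among genes of antibody secretion, the measured plasma cell genes were mostly higher, while the endoplasmic reticulum list stood near the shares of all genes. Of 17 plasma cell genes listed, 10 were measured, and Prdm1, Jchain, Sdc1 and Tnfrsf17 were not among them. Of the 10, 7 were higher and 1 lower after rescaling (70% and 10%, beside 27.6% and 27% of all genes). Mzb1, a chaperone of immunoglobulin, stood at 63.8, 90.8 and 90.8 mRNA per cell in MZB and 20.2 and 17.0 in FoB. Irf4 was higher by 0.46 after rescaling, and Xbp1 was not called (−0.06, limma adjusted p = 0.517). Of 69 genes of the endoplasmic reticulum and unfolded protein response, 17 were higher and 16 lower. These shares of 24.6% and 23.2% are near the 27.6% and 27% of all genes. Pdia4, a protein disulphide isomerase, stood at 141, 171 and 177 against 22.8 and 16.0, with a rescaled log2 difference of 2.19. Edem1 and Derl3, of the degradation of misfolded proteins, had values of 1.11 and 1.22, and Txndc5 one of −1.31.

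**Figure D5:**
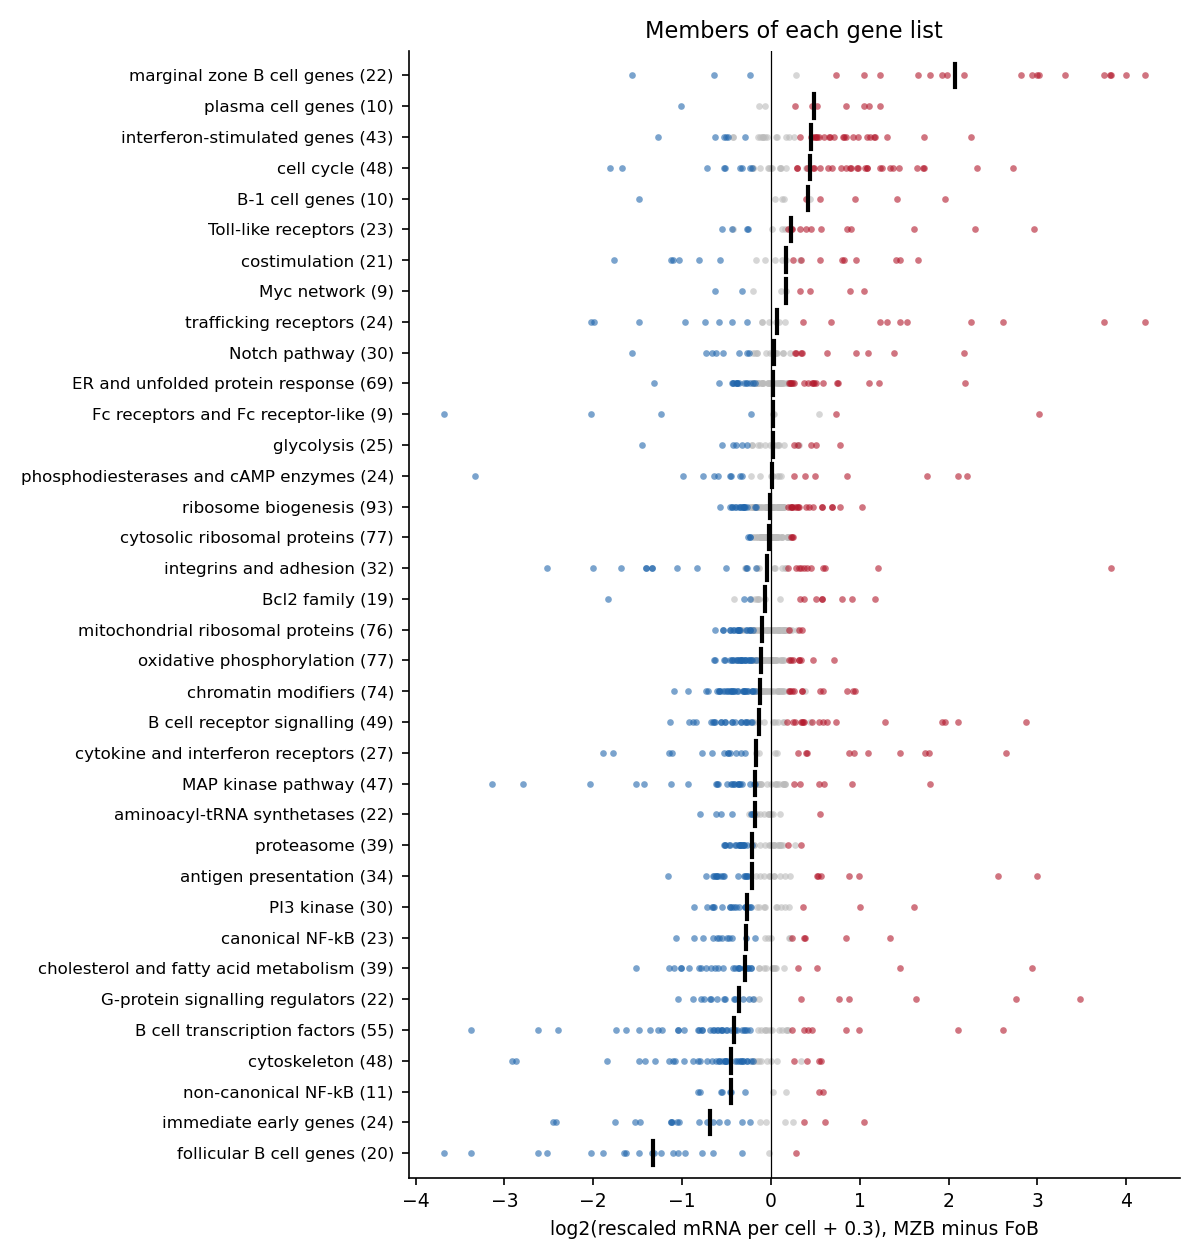
Log2 difference of rescaled values for every tested member of the gene lists with at least 9 tested members (number in brackets). Points are genes, red where called higher in MZB, blue where lower and grey where not called, and black bars mark the list medians. The medians run from −1.33 for follicular B cell genes to 2.08 for marginal zone B cell genes.

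Markers of other cell types were few in the table. None of the 9 neutrophil and 7 erythroid markers was among the genes measured. Of 12 T cell markers only Lck was measured, at 3.80 to 4.54 mRNA per cell in MZB and 2.75 to 3.31 in FoB, and Lck can also be expressed by B cells. Of 16 macrophage and monocyte markers 3 were measured, with summed levels of 4 to 5.44 in MZB and 1.41 to 2.54 in FoB. Cd68 stood at 2.83, 2.02 and 3.70 in MZB and 1.04 and 0.784 in FoB, and Cd5l at 1.23, 1.75 and 1.37 against 0.707 and 0.387. Both were higher after rescaling, at 0.63 and 0.42, while Ly6c2 was lower (−1.02). The call on Cd68 held in 12 of 19 alternative settings, that on Cd5l in 13 of 19 and that on Ly6c2 in 14 of 17. Cd68 was not called without MZB replicate 1 (0.52) or 3 (0.46) or without FoB replicate 1 (0.66) or 2 (0.60). Cd5l was not called without MZB replicate 1 (0.42) or 2 (0.37) or FoB replicate 2 (0.24), and Ly6c2 not without MZB replicate 1 (−0.85) or FoB replicate 1 (−0.56). Of 9 NK cell markers 2 were measured, with sums of 1.33 to 1.93 in MZB and 0.243 to 0.266 in FoB, of which Prf1, a pore-forming protein of cytotoxic cells, made up 1.23 to 1.38 in MZB and 0.213 to 0.266 in FoB. Of 8 dendritic cell markers 2 were measured, with sums of 10.6 to 13.9 and 10 to 12.6. Platelet and endothelial markers were 1 of 6, Itgb3, and 1 of 10, Pecam1, both lower in MZB after rescaling. The part of other cells in the results was not tested.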

How the data were processed

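Poly(A)-selected RNA of 50000 sorted cells per sample was made into stranded libraries, per the labels' protocols. The submitters' processing notes name STAR and the build mm10 but no versions. For every gene and sample the authors deposited a signal that they name mRNA per cell. Neither labels nor table state the counter, the annotation, the gene filter, the use of strand or the factor from reads to molecules, so reads of overlapping genes may be shared. Of 9690 genes given by Entrez identifier, 9681 were named from GRCm38.p6. No sample column was left unassigned (0).

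The deposited values of a gene rise in steps of 1 read, and whole reads were recovered for 100% of genes (largest deviation 2.9e-05, tolerance 0.1 reads). Library totals ran from 5044477 to 6708005 reads and the median gene from 224 to 314. Replicates correlated at 0.985 to 0.990 on the log scale and MZB with FoB libraries at 0.916 to 0.921. No pair of libraries was identical (0), and the chi-square per gene between replicates ran from 1.91 to 3.95, above counting noise.

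The test was limma 3.58.1 under R 4.3.3 (lmFit, eBayes with intensity trend, two-sided) on log2(value + 0.3) over the 5 libraries, without covariates, for genes with at least 0.3 mRNA per cell in at least 2 libraries, which left out 20 genes per cell and 24 after rescaling. Rescaling trimmed 0.3 of the ratios and 0.05 of the levels at each end and gave factors of 1.10, 1.44 and 1.32 for MZB and 0.776 and 0.617 for FoB. Benjamini-Hochberg adjustment ran over all tested genes, and the procedure was tested on simulated data. Tables came from pandas 2.3.3 under Python 3.11.15, plots from matplotlib 3.10.9.

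The members and lists were chosen with earlier results of these data known. Lists are described by counts and medians, without a test of their own. Named genes are the sort markers, in each direction the 15 genes with the largest rescaled difference that passed, did not overlap and had a mean of at least 3 mRNA per cell in the higher group, and up to 4 per list with the smallest rescaled p. Predicted genes, clones, receptor segments and small RNAs were left out of the 15. Another 43 genes, Kdm1a and single list members were named after their values were seen. The alternatives are other pseudocounts, floors and scalings, no trend, library weights, a replicate block, all 10 libraries, a test against a change of 1.5-fold, and the omission of each library in turn. A voom fit of the recovered reads (limma) was chosen after the data had been seen and is given as an alternative only.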

Additional observations from a re-analysis of the deposited data

How the results depend on the processing

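Per cell, leaving out each library in turn gave 4660 to 8393 higher and 84 to 151 lower genes, against 7754 and 146. After rescaling it gave 2066 to 2511 higher and 1927 to 2547 lower genes, against 2663 and 2605. Tested against a 1.5-fold change, 2237 genes were higher and 53 lower per cell, and 475 and 306 after rescaling. The total mRNA ratio of 1.75 ran from 1.58 to 1.97 without 1 library, and was 1.76 without the 100 highest genes and 1.88 for the median gene. Equal totals gave 3110 higher and 2052 lower genes, equal upper quartiles 3052 and 2172, and limma voom on recovered reads 2730 and 2745. With the replicate number as a replicate block, 1054 genes were higher and 42 lower per cell, and 2572 and 2512 after rescaling; only numbers 1 and 2 are shared, the deviations of same-numbered libraries correlated at −0.01 and −0.14 per cell, and the labels do not say that a number pairs samples. Quantile normalization turned Fas to −0.020 and Cxcr3 to −0.060 (limma adjusted p = 0.931 and 0.822), and the cause was not tested. Of 208 named genes called after rescaling, 135 were called in every alternative, and 189 in every alternative other than the 1.5-fold threshold. Many of them were named for a small p or a large difference, so these counts do not describe called genes in general. Low genes such as Tsga13, Ackr3, Asb2 and Pla2g7 rest on under 10 reads per FoB library, so their size is poorly set.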

Other observations

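Genes of survival and of cyclic nucleotide signalling were called in both directions, as were all genes. Of 19 Bcl2 family genes, 8 were higher and 3 lower after rescaling (42.1% and 15.8%, beside 27.6% and 27% of all genes). Bid, which links death receptors to mitochondria, stood at 19.6, 24.0 and 23.5 mRNA per cell in MZB and 6.14 and 4.48 in FoB, and the near-identical copies Bcl2a1b and Bcl2a1d had rescaled log2 differences of 0.80 and 0.92. Bmf, a death-promoting member, stood at 0.945, 1.13 and 1.17 against 3.23 and 2.13. Of 24 phosphodiesterases and cAMP enzymes, 7 were higher and 9 lower (29.2% and 37.5%), a median of 0.01, and the share higher was near that of all genes. While Pde2a was among the lowest genes in MZB, the cAMP-specific Pde4a stood at 4.71, 5.88 and 6.31 against 0.512 and 0.479, and Pde4d and Pde8a had rescaled log2 differences of 2.10 and 1.76. Of 24 immediate early genes, 17 were lower and 3 higher after rescaling (70.8% and 12.5%, beside 27% and 27.6% of all genes), a median of −0.68, while per cell 9 were higher and 5 lower. Zfp36, which destabilises cytokine mRNA, stood at 20.3, 27.2 and 23.2 in MZB and 31.4 and 24.4 in FoB, which overlap per cell and not after rescaling (log2 −1.11), Zfp36l2 had a rescaled log2 difference of −1.76 and Gadd45g one of −2.42.

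Genes known from other B cell subsets gave a mixed picture. Of 10 B-1 cell genes, 5 were higher and 1 lower after rescaling (50% and 10%, beside 27.6% and 27% of all genes). Plscr1 was at 1.42, Bhlhe41 at 0.94 and Spn, which encodes CD43, at −1.49. The 4 tested age-associated B cell genes were called higher after rescaling, as were 27.6% of all genes: Fcrl5, Cd80 (1.66), Cxcr3 (0.68) and Zeb2 (0.42). Cxcr3 turned to −0.060 under quantile normalization and held its call in 13 of 16 alternative settings, and Zeb2 in 16 of 19. Neither call held without 1 FoB library, replicate 1 for Cxcr3 (0.44) and replicate 2 for Zeb2 (0.36). Of 5 immature B cell genes, 3 were lower (60%), Vpreb3 (−1.55), Sox4 (−1.27) and Cd93 (−0.95). One other, Cd24a, was higher (0.80), a share of 20%. Of 74 tested chromatin modifiers, 31 were lower and 11 higher (41.9% and 14.9%, beside 27% and 27.6% of all genes). Ezh2 was at 0.86 and the deacetylase genes Hdac10, Hdac5 and Hdac7 at −1.09, −0.93 and −0.73.

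In molecules, with the deposited unit taken as given, the genes higher on average in MZB added 38996 mRNA per cell and the 403 genes lower on average took away 877. The gain was spread widely: 689 genes made up 50% of it and the 10 largest 4.47%. Eef1a1, a translation factor, gained 299 and was not called after rescaling, while Cr2 gained 232, Plac8 171 and Pdia4 143, and these 3 were called. Of the molecules lost, Fcer2a made up 9.16%, with a drop from 93.7 to 13.3. Rescaled differences also varied with the level of the gene. With the genes in 5 equal groups by mean level, the median was 0.17 in the lowest group and −0.11 in the highest. In these 2 groups 35.6% and 21.5% of genes were called higher, and 13.4% and 41.7% lower. Over 5 groups by relative length, worked back from the worth of 1 read, the medians stayed between −0.03 and 0.03.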
